A study of Mus musculus with 18 samples.

Results

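Interferon-stimulated genes are the genes that a cell switches on when interferon, a secreted alarm protein, binds its receptor. Type I interferons (the interferon-α family and interferon-β) act through kinases at the receptor that switch on a transcription factor complex, which holds STAT2 and IRF9 and binds the interferon-stimulated response element (ISRE) of target promoters. Interferon-γ acts mainly through another element, the γ-activated site (GAS). The products of these genes sense viral nucleic acid, block viral entry and translation, or attack vacuoles that hold intracellular pathogens, and in the brain microglia and astrocytes are among the cells known to express them. The set described here held 39 genes, listed by name. The arrays held 20352 genes with probe sets of their own, and 38 of the 39 were among the 16281 that passed a filter on dim signal. Mx1, an antiviral GTPase, was the member left out.

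The tissue was the caudal part of the corpus callosum, a white matter tract, of C57BL/6 mice. All mice ate chow containing cuprizone (CPZ) at 0.2%. CPZ binds copper, and oligodendrocytes and their myelin are lost on this diet. No array of normally fed mice was among those analysed here. Mice were wild type (WT) or lacked Trem2 (KO, written TREM2-/- in the labels), a receptor of microglia and other myeloid cells that senses lipids and signals through the adaptor TYROBP. The 4 groups were WT at stage 6 weeks with 4 arrays, KO at 6 weeks with 3, WT at 12 weeks with 5 and KO at 12 weeks with 6. The labels do not settle whether a stage counts mouse age or weeks of CPZ feeding, nor which part of Trem2 was removed. They also do not say whether arrays come from different mice, so the p-values describe the spread among these samples, and that spread can be technical. Values are log2 probe-set signals, a gene's value is the median over its probe sets, and the number of arrays limits the precision. Trem2 itself had a mean log2 signal at 6 weeks of 7.29 ± 0.83 in WT (SD, n = 4) against 5.80 ± 0.33 in KO (SD, n = 3), and at 12 weeks of 7.36 ± 0.48 (SD, n = 5) against 5.27 ± 0.30 (SD, n = 6), with every KO array below every WT array at each stage. Myelin genes, which mark the labelled tissue, had group means for Mbp, encoding myelin basic protein, between 9.11 and 10.78.

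RefSeq promoter sequences of mouse build GRCm38.p6, from 250 bases before to 50 bases after the start, were at hand for 29 of the 39 members. The core of the ISRE, GAAA then any 2 bases then GAAA, was searched on both strands. It was found in 15 of the 29 members (51.7%) and in 3.99% of the 27025 genes of the promoter table. The GAS letters, TTCNNNGAA, were found in 8 of the 29 (27.6%) and in 9.55% of all genes. With a C required after the ISRE core the shares were 41.4% and 0.944%. A match is a description of letters and not a test of binding. The stretches below belong to members that passed the test at 12 weeks (given further on), because they let the element be seen where it lies. They run 5′ to 3′ on the strand of the gene, end at the base before the start, and carry the ISRE core in capitals (TTTC at both ends where the core lies on the other strand). The places are chr19:34583279-34583528 (+ strand) for Ifit3, chr19:34640639-34640888 (+ strand) for Ifit1, chr8:71537473-71537722 (- strand) for Bst2 and chr11:58199306-58199555 (+ strand) for Igtp.
Ifit3: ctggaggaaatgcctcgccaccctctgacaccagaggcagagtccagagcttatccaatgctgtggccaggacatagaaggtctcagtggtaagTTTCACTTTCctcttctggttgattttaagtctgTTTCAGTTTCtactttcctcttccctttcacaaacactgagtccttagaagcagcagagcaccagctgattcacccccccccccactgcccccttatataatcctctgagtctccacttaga
Ifit1: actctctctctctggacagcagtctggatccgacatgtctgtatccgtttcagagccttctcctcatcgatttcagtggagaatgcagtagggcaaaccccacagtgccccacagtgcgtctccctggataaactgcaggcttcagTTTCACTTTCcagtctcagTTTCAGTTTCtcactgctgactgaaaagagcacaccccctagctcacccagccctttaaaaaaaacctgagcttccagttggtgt
Bst2: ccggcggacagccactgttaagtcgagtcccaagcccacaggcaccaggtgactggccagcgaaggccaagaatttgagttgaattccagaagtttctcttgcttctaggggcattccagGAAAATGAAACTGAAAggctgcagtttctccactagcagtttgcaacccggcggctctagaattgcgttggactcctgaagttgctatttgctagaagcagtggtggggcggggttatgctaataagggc
Igtp: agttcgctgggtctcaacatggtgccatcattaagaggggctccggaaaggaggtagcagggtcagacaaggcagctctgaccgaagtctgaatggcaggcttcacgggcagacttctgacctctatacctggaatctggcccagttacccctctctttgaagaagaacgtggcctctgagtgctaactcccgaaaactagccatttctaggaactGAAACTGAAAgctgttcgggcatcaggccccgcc
In Ifit3 the elements began 156 and 122 bases before the start, and in Ifit1 at 104 and 85. In Bst2 the pair overlapped, beginning at 130 and 124 bases before the start and sharing the middle GAAA. Igtp had a single core at 34 bases before the start. In Ifitm3 both cores lay just past the start, at bases 3 and 20 of the transcript, and the stretch that holds them is chr7:141010716-141010742 (- strand).
Ifitm3: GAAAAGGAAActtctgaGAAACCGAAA
Among members that did not pass, Isg15 held 3 overlapping cores at 78, 72 and 66 bases before its start, and Gbp3, Irgm1 and Oas1a held 2 each. In all, 8 members had 2 or more. Irf1, Irf7, Irf9, Ifit2, Xaf1, Ifi44, Ifi35, Samd9l, Trim25, Herc6, Cmpk2, Parp12, Dtx3l and Oasl2 had none in this window. Rtp4 and Iigp1 were not matched in the promoter table.

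At 12 weeks interferon-stimulated genes were higher in KO than in WT tissue. Of the 38 members tested, 37 had a higher mean in KO, with a median log2 difference of 0.70 (mean 0.75). Over all genes tested the median was 0.02 and 52.4% were higher in KO. By limma with Benjamini-Hochberg adjustment over all 16281 genes, 7 members passed at 0.05, all higher in KO, where 0.356% of all genes were called higher: Rtp4, Ifit3, Igtp, Ifit1, Ifitm3, Iigp1 and Bst2. At an unadjusted p under 0.05 there were 22 members, all higher in KO, and 11.1% of all genes in either direction. For 14 of the 38 members every KO array lay above every WT array, as it did for 1.7% of all genes. The members were chosen with earlier results of these data known, so the shares set beside them, here and below, are a description and not a test. The antiviral effectors and the interferon-inducible GTPases held the calls (5 and 2). In this main fit, no regulator, nucleic acid sensor or ADP-ribosyltransferase passed.

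**Figure D1:**
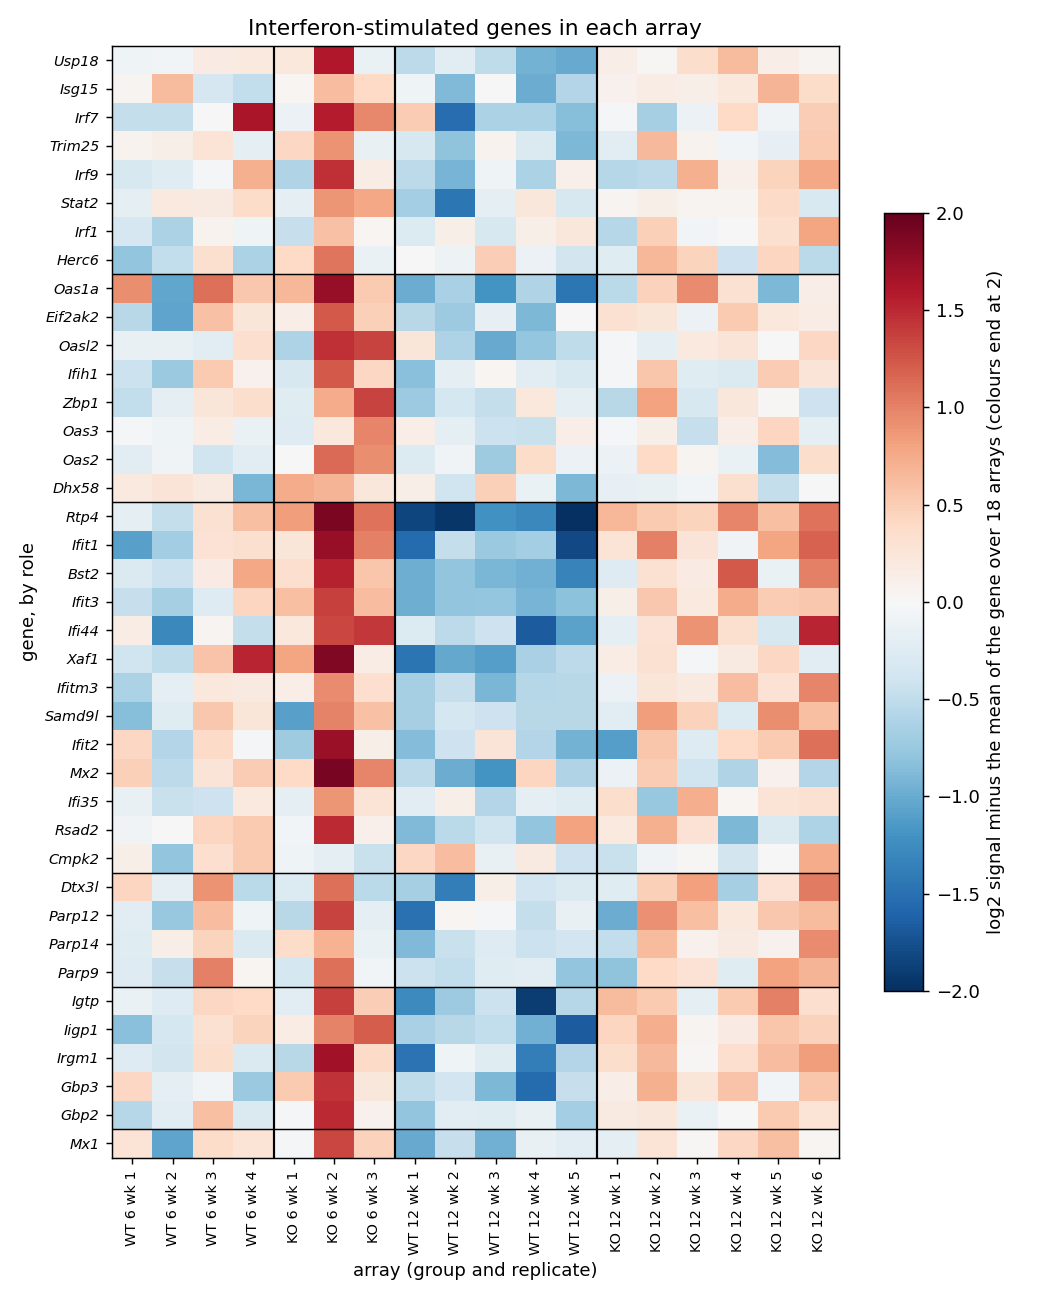
Log2 signal of each interferon-stimulated gene (rows, by role from the top: regulators, sensors, effectors, ADP-ribosyltransferases, GTPases, then Mx1, which was not tested) in each of the 18 arrays (columns), with the gene's mean over arrays taken off. The WT columns at 12 weeks are mostly blue and the KO columns at 12 weeks mostly red, and replicate 2 of KO at 6 weeks is the reddest column.

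The count of 7 rested on the arrays that entered it. It was 2, Ifit3 and Rtp4, without WT 12-week replicate 1, 3, 4 or 5 or without KO 12-week replicate 2 or 6, and 3 without KO 12-week replicate 3, 4 or 5. In the fits that called 2 members, 13 to 17 of all genes were called higher, and in those that called 3, 17 to 23, beside 58 in the main fit. The mean difference over the members in those fits was 0.71 to 0.79. Ifit3 and Rtp4 were called in all 18 fits that left out a single array. In the order of the sample list the 12-week arrays form 2 runs, a new run starting where a WT array follows a KO array. The labels name no such run, and whether a run was a batch is not known. Judged by Xist and Y-linked genes, the first run held female WT and male KO arrays, and the second run male WT and female KO arrays, so within a run genotype and sex cannot be told apart. With sex and run together as covariates 6 of the 7 were called, all but Ifit1, and 44 of all genes were called higher. That fit takes the effects of sex and run to add up. The median difference over the members was 0.74 in the first run (2 WT, 3 KO) and 0.80 in the second (3 WT, 3 KO), with 36 and 35 of 38 higher in KO. Among males it was 0.51 and among females 0.89, and within a sex genotype and run cannot be told apart.

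Myeloid markers were also higher in KO at 12 weeks. Of 16 pan-myeloid genes (such as Csf1r and Itgam) 14 were higher in KO at 12 weeks, with a median of 0.98 and 2 called. All 9 measured genes of homeostatic microglia (such as P2ry12) were higher, with a median of 1.47 and 6 called. The pan-myeloid score, the average over its genes after each gene was centred, ran from -0.87 to -0.24 in WT and from -0.13 to 0.71 in KO at 12 weeks. The score of the 39 interferon-stimulated genes ran from -0.63 to -0.43 in WT and from -0.11 to 0.42 in KO, also without overlap. With the pan-myeloid score as a covariate the mean difference over the members fell from 0.75 to 0.39 and 1 member passed, Rtp4. In that fit 8 of all genes were called higher. Since the pan-myeloid score itself did not overlap between genotypes at 12 weeks, the fit cannot divide the difference between the 2. In bulk tissue, a change in the number of cells of a type and in RNA per cell cannot be told apart. Astrocyte markers were higher in KO too (8 of 8, median 0.50, none called), as were choroid plexus and ependyma markers (6 of 6, median 0.98, none called), while T and NK cell markers had a median of 0.19 and neuron markers of -0.08. The T and NK cell score ran from -0.40 to 0.16 in WT and from -0.38 to 0.29 in KO. Array signals have no true zero, so none of these cell types is called absent. The part of these lists in the result was not tested.

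**Figure D2:**
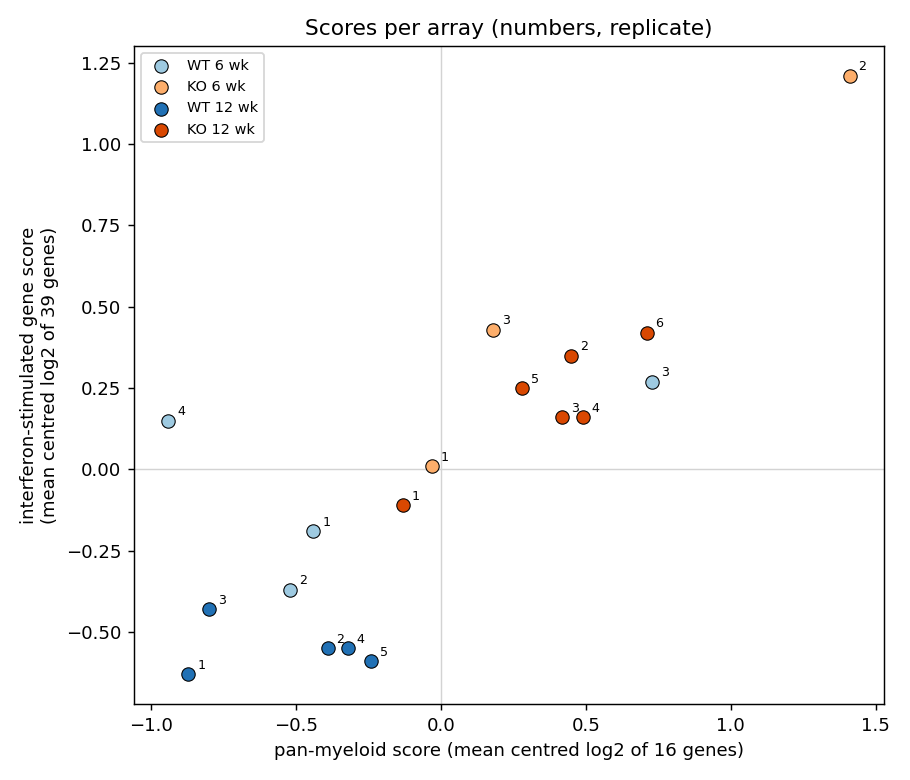
Mean centred log2 value of the 39 interferon-stimulated genes (vertical) against that of 16 pan-myeloid genes (horizontal), a point for each of the 18 arrays, coloured by group and numbered by replicate. At 12 weeks every KO array lies above and to the right of every WT array, with KO replicate 1 the lowest KO array on both scores (-0.13 and -0.11). WT replicate 4 at 6 weeks has the lowest pan-myeloid score (-0.94) with a gene score of 0.15, and KO replicate 2 at 6 weeks has the highest of both (1.41 and 1.21).

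Among the antiviral effectors, 12 of 13 tested were higher in KO at 12 weeks, with a median log2 difference of 1.00. Rtp4 encodes a receptor transporter protein known to restrict flaviviruses. Its log2 signal at 12 weeks was 4.59, 4.49, 5.22, 5.14 and 4.43 in the WT arrays, and in the 6 KO arrays the lowest was 6.87, the median 7.07 and the highest 7.51. At 6 weeks it was 6.23, 5.95, 6.73 and 7.03 in WT and 7.26, 8.31 and 7.51 in KO. The groups did not overlap at either stage, and the 5 WT arrays at 12 weeks were the lowest of the 18. Rtp4 was 5.17-fold higher in KO at 12 weeks (log2 difference 2.37 ± 0.23, SE, adjusted p = 4.15e-05). All 3 of its probe sets were higher in KO, by 1.01 to 2.44, and with the brightest of them alone the difference was 1.10 and did not pass (adjusted p = 0.112).

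Ifit3 and Ifit1 encode proteins with tetratricopeptide repeats that bind foreign RNA and hinder its translation. Ifit3 at 12 weeks was at 7.78, 7.97, 7.99, 7.83 and 7.94 in WT, and between 8.87 and 9.50 (median 9.28) in KO. At 6 weeks it was 8.29, 8.10, 8.50 and 9.19 in WT and 9.36, 10.13 and 9.37 in KO. Every KO array lay above every WT array at both stages, and the WT arrays at 12 weeks spanned little (SD 0.09, n = 5). Ifit3 was 2.46-fold higher in KO at 12 weeks (1.30 ± 0.20, SE, adjusted p = 0.00553). Ifit1 was dimmer, at 4.12, 5.19, 4.93, 4.98 and 3.86 in WT and between 5.59 and 6.84 (median 6.20) in KO at 12 weeks. At the earlier stage it was 4.58, 4.97, 5.96 and 5.98 in WT and 5.91, 7.40 and 6.67 in KO. Its groups were apart at 12 weeks and overlapped at 6, where KO replicate 1 lay among the WT arrays. The 12-week difference was 3.08-fold (1.62 ± 0.33, SE, adjusted p = 0.0355).

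Ifitm3 encodes a membrane protein that blocks the fusion of virus with endosomes, and Bst2 encodes tetherin, which holds budding virus at the cell surface. Ifitm3 at 12 weeks was at 9.36, 9.56, 9.11, 9.45 and 9.47 in WT, and between 9.91 and 11.00 (median 10.30) in KO. At 6 weeks it was 9.40, 9.84, 10.23 and 10.20 in WT and 10.16, 10.97 and 10.36 in KO. The 12-week groups were apart and the 6-week groups overlapped by the lowest KO array. Ifitm3 was 2.00-fold higher in KO at 12 weeks (1.00 ± 0.21, SE, adjusted p = 0.0382). Bst2 at 12 weeks was at 6.65, 6.83, 6.71, 6.66 and 6.29 in WT and between 7.37 and 8.85 (median 7.86) in KO. The 6-week values were 7.33, 7.19, 7.79 and 8.40 in WT and 7.96, 9.16 and 8.17 in KO. The WT arrays at 12 weeks lay below all others, and at 6 weeks WT replicate 4 lay above 2 of the 3 KO arrays. Bst2 was 2.61-fold higher in KO at 12 weeks (1.38 ± 0.29, SE, adjusted p = 0.0382). Bst2 is also a marker of plasmacytoid dendritic cells and of the other 5 markers of those cells tested, 1 was higher in KO at 12 weeks (median log2 difference -0.18).

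Of the effectors that did not pass, Ifi44 had the largest 12-week difference (1.21 ± 0.35, SE, adjusted p = 0.167), followed by Xaf1, a pro-apoptotic factor, at 1.09 ± 0.33 (SE, adjusted p = 0.186). Ifi44 passed with its brightest probe set alone, and Xaf1 in a fit of the 12-week groups alone and without the 2 arrays of lowest weight. Samd9l, a restriction factor of poxviruses, was at 0.90 ± 0.32 (SE). The groups of Xaf1 and Samd9l did not overlap at 12 weeks. Ifit2, Mx2, Ifi35 and Rsad2, which encodes viperin, had differences of 0.26 to 0.72. Cmpk2, a mitochondrial nucleotide kinase encoded beside Rsad2, was the exception, chosen here after its values were seen. It was at 5.13, 5.34, 4.57, 4.90 and 4.31 in WT and between 4.27 and 5.47 (median 4.68) in KO at 12 weeks, and its groups overlapped. Its difference was -0.15 ± 0.25 (SE), but 4 of its 9 probe sets were higher in KO, and the mean of its probe sets gave 0.21.

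**Figure D3:**
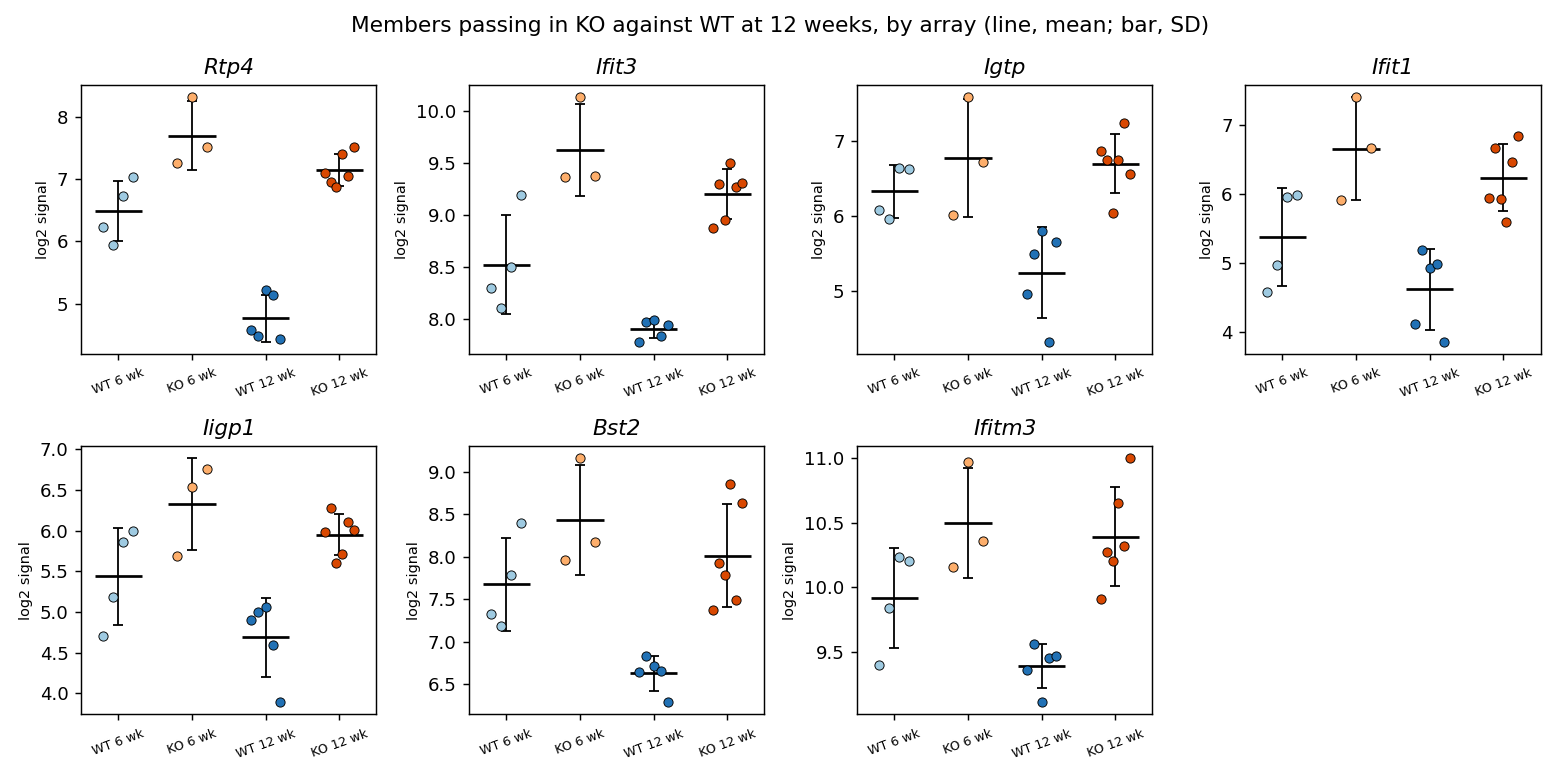
Log2 signal of the 7 members that passed in KO against WT at 12 weeks, a point per array in each of the 4 groups, with the group mean as a line and the SD as a bar. In every panel all KO arrays at 12 weeks lie above all WT arrays at 12 weeks, and only Rtp4 and Ifit3 show the same at 6 weeks.

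All 5 interferon-inducible GTPases were higher in KO at 12 weeks, with a median log2 difference of 1.22, and for each the KO and WT arrays did not overlap. Some members of these GTPase families load onto the membranes of pathogen vacuoles, and the genes respond most strongly to interferon-γ. Igtp (Irgm3) at 12 weeks was at 4.96, 5.50, 5.80, 4.33 and 5.66 in WT and between 6.04 and 7.24 (median 6.75) in KO. The 6-week values were 6.09, 5.97, 6.65 and 6.63 in WT and 6.02, 7.59 and 6.72 in KO, which overlapped. Igtp was 2.74-fold higher in KO at 12 weeks (1.45 ± 0.29, SE, adjusted p = 0.0333). Iigp1 (Irga6) at 12 weeks was at 4.90, 5.00, 5.06, 4.59 and 3.89 in WT and between 5.60 and 6.28 (median 5.99) in KO. At 6 weeks it was 4.71, 5.19, 5.86 and 5.99 in WT and 5.69, 6.54 and 6.76 in KO, where KO replicate 1 lay among the WT arrays. Iigp1 was 2.40-fold higher in KO at 12 weeks (1.26 ± 0.26, SE, adjusted p = 0.0382), with probe sets from 0.04 to 1.72.

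Gbp3, a guanylate-binding protein, was at 5.17, 5.29, 4.77, 4.14 and 5.21 in WT and between 5.62 and 6.38 (median 6.07) in KO at 12 weeks. The groups were apart, and the difference of 1.12 ± 0.26 (SE) missed the threshold (adjusted p = 0.0578). Gbp3 was called in 5 of 14 alternative settings and in 2 of 18 fits without 1 array. Irgm1, which regulates the other immunity-related GTPases, had a difference of 1.22 ± 0.32 (SE, adjusted p = 0.109) and Gbp2 of 0.59 ± 0.25 (SE, adjusted p = 0.397). Some alternatives called Irgm1, among them the brightest probe set, the mean of probe sets and array weights. Ifit3, Oas1a, Iigp1 and the Gbp genes have close copies in the mouse genome, and how far their probe sets tell the copies apart was not tested.

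The 8 regulators were all higher in KO at 12 weeks, with a median log2 difference of 0.58 and none called. Usp18, the protease that removes ISG15 from proteins and damps signalling at the type I receptor, was at 4.66, 4.95, 4.67, 4.24 and 4.17 in WT and between 5.20 and 5.82 (median 5.32) in KO. Its groups were apart (difference 0.87 ± 0.24, SE, adjusted p = 0.144), though its 10 probe sets ran from -0.50 to 2.27, and the brightest alone passed. In all, Usp18 was called in 4 of 14 alternative settings and in 1 of 18 fits without 1 array. Isg15, a ubiquitin-like protein attached to newly made proteins, was at 5.57, 4.76, 5.64, 4.66 and 5.07 in WT and between 5.73 and 6.33 (median 5.83) in KO. Its groups were apart by a small gap (0.78 ± 0.22, SE, adjusted p = 0.159). Trim25, a ubiquitin ligase that activates the RNA sensor RIG-I, was at 5.15, 4.67, 5.55, 5.18 and 4.57 in WT and between 5.27 and 6.12 (median 5.49) in KO. Its groups overlapped (0.59 ± 0.22, SE, adjusted p = 0.323), and its brightest probe set was lower in KO, at -0.33. The transcription factors had smaller differences, with Irf7 at 0.62, Irf9 at 0.57, Stat2 at 0.54 and Irf1 at 0.18. Herc6, the mouse ligase that attaches ISG15, was at 0.08.

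The 8 sensors of foreign nucleic acid were also all higher in KO at 12 weeks, but by less, with a median of 0.35, and the KO and WT arrays of each overlapped. Oas1a, which makes the oligoadenylate signal that activates RNase L, was at 4.06, 4.41, 3.85, 4.45 and 3.61 in WT and between 4.16 and 5.99 (median 5.27) in KO. Only the lowest KO array, replicate 5, reached the WT range (difference 1.04 ± 0.37, SE, adjusted p = 0.275). Eif2ak2 encodes PKR, the kinase that halts translation on binding double-stranded RNA. It was at 4.66, 4.49, 5.05, 4.32 and 5.23 in WT and between 5.10 and 5.74 (median 5.44) in KO, overlapping by a single array on each side (0.69 ± 0.27, SE, adjusted p = 0.342). Oasl2, an OAS-like protein, was at 6.18, 5.31, 4.92, 5.16 and 5.43 in WT and between 5.75 and 6.34 (median 6.02) in KO, where WT replicate 1 lay within the KO range (0.64 ± 0.30, SE, adjusted p = 0.437). The 9 probe sets of Oasl2 ran from -0.26 to 1.72. Oasl2 passed with the brightest of them alone (1.32) and with their mean. Ifih1, encoding the RNA sensor MDA5, was at 0.43, Zbp1 at 0.27, Oas3 at 0.16, Oas2 at 0.11 and Dhx58, encoding LGP2, at 0.08.

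The 3 ADP-ribosyltransferases and Dtx3l, the ubiquitin ligase that partners with PARP9, had 12-week differences of 0.62 to 0.81, with none called and all groups overlapping. Parp14 was at 4.07, 4.51, 4.70, 4.53 and 4.58 in WT and between 4.46 and 5.90 (median 5.09) in KO (0.72 ± 0.23, SE, adjusted p = 0.225). Dtx3l was at 4.29, 3.57, 5.07, 4.57 and 4.67 in WT and between 4.29 and 6.00 (median 5.34) in KO (0.81 ± 0.36, SE, adjusted p = 0.404). Parp9 was at 4.75, 4.69, 4.94, 4.97 and 4.38 in WT and between 4.37 and 5.98 (median 5.52) in KO (0.62 ± 0.31, SE, adjusted p = 0.468). For Parp14 and Parp9 the low KO array was replicate 1.

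**Figure D4:**
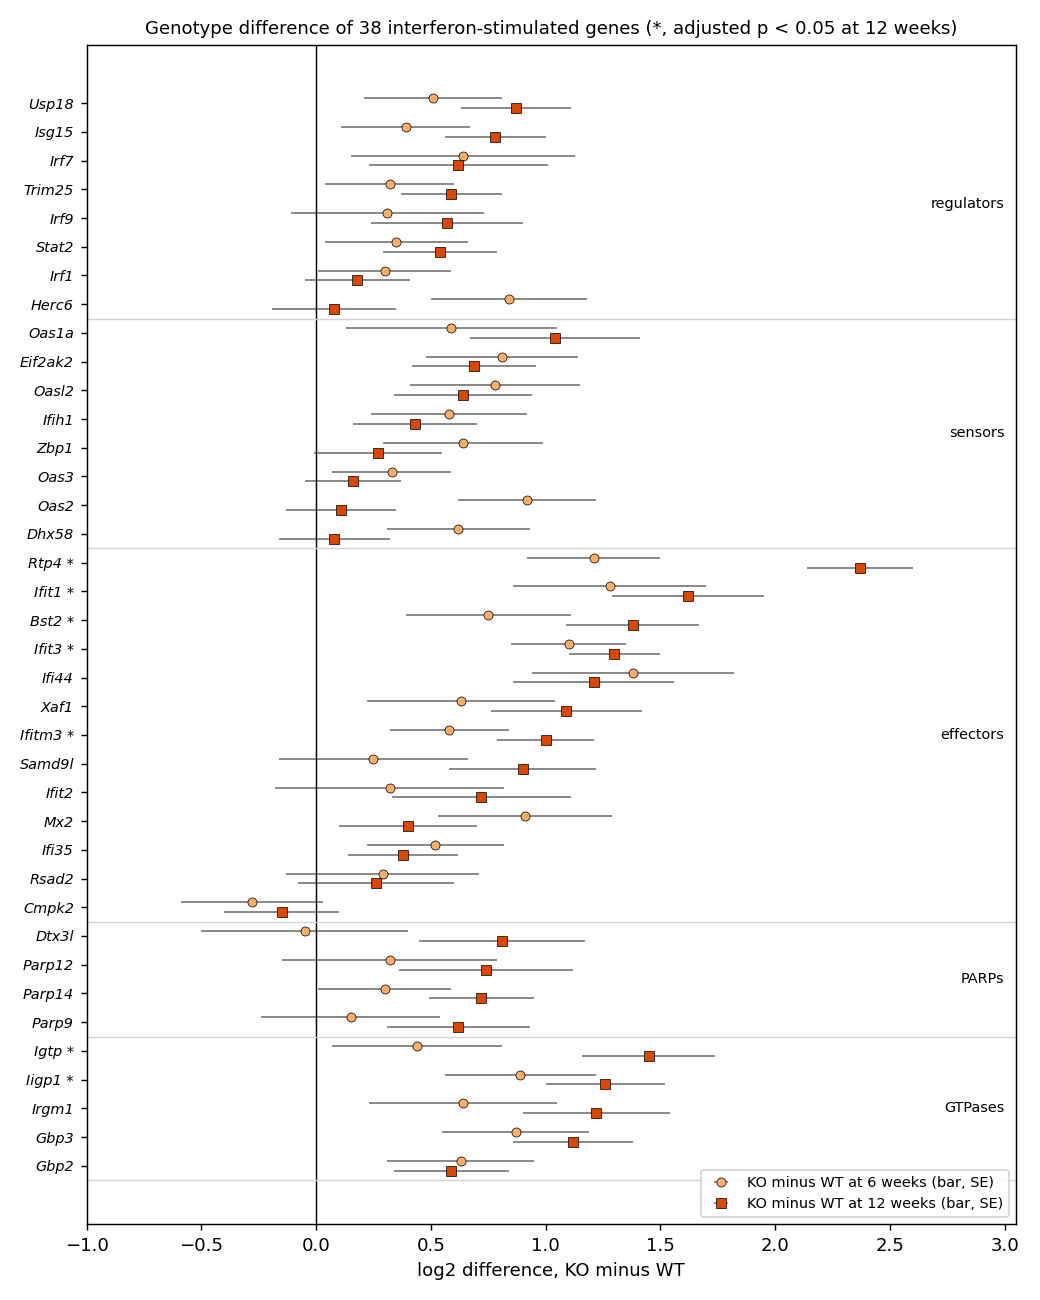
Log2 difference of KO minus WT (horizontal) for the 38 members tested (rows, by role), at 6 weeks (circles) and 12 weeks (squares), with the SE as a bar and a star on the 7 that passed at 12 weeks. The squares of effectors and GTPases reach farthest to the right, and Cmpk2 is the only square left of 0.

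At 6 weeks 36 of 38 members had a higher mean in KO, with a median log2 difference of 0.58 (all genes, median 0.00 and 49.6% higher), and none passed, where 0.043% of all genes were called by limma. At an unadjusted p under 0.05 there were 11 members, all higher in KO, and 5.44% of all genes in either direction. The smallest p belonged to Ifit3 (1.10 ± 0.25, SE, adjusted p = 0.214) and Rtp4 (1.21 ± 0.29, SE, adjusted p = 0.247), and Ifi44 had the largest difference (1.38 ± 0.44, SE). Every KO array lay above every WT array for 4 of 38 members (Ifi44, Ifit3, Oas2 and Rtp4) and for 2.71% of all genes. The sensors, with a median of 0.63, stood as high as the effectors, also at 0.63. Oas2 was 4.05, 4.21, 3.89 and 4.05 in WT and 4.28, 5.42 and 5.21 in KO at 6 weeks, a difference of 0.92 ± 0.30 (SE, adjusted p = 0.67) beside 0.11 ± 0.24 (SE) at 12 weeks.

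A single array weighed heavily at 6 weeks. KO replicate 2 was the highest of the 3 KO arrays for 32 of 38 members, and KO replicate 1 the lowest for 28. The score of the 39 genes was 0.01, 1.21 and 0.43 in KO and -0.19, -0.37, 0.27 and 0.15 in WT. Replicate 2 also had the highest pan-myeloid score of all arrays (1.41), and the lowest weight when array quality was estimated from the fit (0.446). Without it the mean difference over the members was 0.25 in place of 0.58 and 29 of 38 were higher in KO, and without KO replicate 1 the mean was 0.85. Without WT replicate 4, 1 member passed, Ifit3 (1.32, adjusted p = 0.0233). Pan-myeloid markers were higher in KO at 6 weeks as well (14 of 16, median 0.95, none called), as were those of homeostatic microglia (8 of 9, median 1.75, 3 called). Astrocyte markers were higher in 7 of 8 (median 0.69, none called) and myelin genes in 0 of 8 (median -0.66, none called), and the part of these lists in the result was not tested. Between males (2 WT, 2 KO) the median over the members was 0.83, and between females (2 WT, 1 KO) 0.13.

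The 6-week and 12-week genotype comparisons share no arrays. Over the 38 members their log2 differences had a Pearson's r of 0.51 and a Spearman's rho of 0.34, a description over genes that share arrays and are not independent. In 36 members KO was higher at both stages, and in 23 the difference was larger at 12 weeks. The genotype by stage interaction passed for no member and for 0% of all genes by limma, with 5.26% of members and 5.19% of all genes at an unadjusted p under 0.05, which are near each other. Over the members the interaction ran from -0.81 ± 0.39 in Oas2 (SE, adjusted p = 0.92) to 1.16 ± 0.37 in Rtp4 (SE, adjusted p = 0.836).

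Between stages within WT, most interferon-stimulated genes had a lower mean at 12 than at 6 weeks. This held for 34 of 38 members, with a median log2 difference of -0.52 (all genes, 0.01), and 1 member passed, Rtp4, where 0.0184% of all genes were called lower. Rtp4 fell by 1.71 ± 0.26 on the log2 scale (SE, adjusted p = 0.0149), and all 5 arrays at 12 weeks lay below all 4 at 6 weeks. That call was lost without WT 6-week replicate 3 or 4 or without WT 12-week replicate 2 or 5. At an unadjusted p under 0.05 there were 13 members (34.2%), all lower, and 8.48% of all genes in either direction. Among the 13 were Xaf1 (-1.25), Oas1a (-1.36), Igtp (-1.09) and Bst2 (-1.05). Herc6 had the highest difference, 0.38. Within KO the 12-week mean was lower in 33 of 38 members, with a median of -0.36, none passed (0.00614% of all genes were called) and 10.5% of members had an unadjusted p under 0.05, beside 7.49% of all genes. Without KO 6-week replicate 2 the mean difference within KO was -0.01 in place of -0.34. These comparisons share the 12-week arrays, or the 6-week arrays, with the genotype comparisons above, so a low WT level at 12 weeks enters both. Mean scores of the 39 genes at 6 weeks were -0.03 ± 0.30 in WT (SD, n = 4) against 0.55 ± 0.61 in KO (SD, n = 3), and at 12 weeks -0.55 ± 0.07 (SD, n = 5) against 0.20 ± 0.18 (SD, n = 6). Beside these values, 0 of 8 myelin genes had a higher mean at 12 than at 6 weeks in WT (median -1.73, none called) and 5 of 16 pan-myeloid markers did (median -0.24, none called). Choroid plexus and ependyma markers had a higher mean in 1 of 6 (median -1.16, none called) and neuron markers in 7 of 7 (median 0.52, none called), and their part in the result was not tested.

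In the rest of the pathway 1 gene passed at 12 weeks, described below. Of 18 interferon genes 14 were on the array and 6 passed the filter, and all 6 were lower in KO at 12 weeks (median -0.35) with none called. Ifna14 had the smallest p (-0.69 ± 0.33, SE, adjusted p = 0.442), followed by Ifnl2 (-0.55 ± 0.29, SE), and both belong to families of close copies. Ifng at 12 weeks was at 3.77 ± 0.45 in WT (SD, n = 5) against 3.43 ± 0.58 in KO (SD, n = 6), close to the filter level of 3.41. Ifnb1, encoding interferon-β, did not pass the filter, with group means of 2.67 to 2.76. Of the 9 receptor chains, kinases and partners tested, 5 were higher in KO with a median of 0.03 and none called. The smallest p belonged to Il10rb, a chain of the interferon-λ receptor (0.57 ± 0.25, SE, adjusted p = 0.398), and Ifngr1, a chain of the interferon-γ receptor (0.49 ± 0.21, SE, adjusted p = 0.408). The type I receptor chain Ifnar1 was at 0.05 and the kinase Jak1 at 0.03.

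Sensors and adaptors that induce interferon were higher in KO for 12 of 16 tested at 12 weeks, with a median of 0.26 and none called. Ddx58, encoding RIG-I and itself interferon-inducible, had the smallest p (0.85 ± 0.22, SE, adjusted p = 0.102), followed by the endosomal RNA receptors Tlr3 (0.73 ± 0.23, SE) and Tlr7 (1.59 ± 0.52, SE). Of 6 genes that brake the response, 1 was higher and none passed, and Socs1, an inhibitor of JAK kinases, was at -0.46 ± 0.16 (SE, adjusted p = 0.25). Of 40 further interferon-stimulated genes tested, 35 were higher in KO at 12 weeks, with a median of 0.54. Over all genes 0.356% were called higher, and among these 40 genes 1 passed. That was Cxcl10, a chemokine for activated T cells, at 4.56 ± 0.69 in WT (SD, n = 5) against 6.26 ± 0.43 in KO (SD, n = 6) (1.69 ± 0.34, SE, adjusted p = 0.0355). Lgals9 (1.27, adjusted p = 0.0511) and Ifitm2 (1.12, adjusted p = 0.0552) missed the threshold. At 6 weeks 32 of the 40 were higher, with a median of 0.36 and none called.

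Most single probe sets had the direction of the medians, which are built from them, but sizes differed. At 12 weeks the brightest of Ifi44 was at 2.32 beside 1.21 for the gene, and that of Trim25 at -0.33 beside 0.59. The share over the probe sets of all genes is not given here. Of the 388 probe sets of the 39 members 311 (80.2%) were higher in KO at 6 weeks and 316 (81.4%) at 12 weeks. All probe sets of Rtp4, Ifit1, Ifit2, Ifit3, Ifitm3, Bst2, Igtp, Iigp1, Isg15 and Oas1a were higher in KO at both stages. Members with more probe sets were more mixed, such as Stat2, with 21 of 27 higher at 12 weeks and a range from -0.75 to 1.54, and Herc6, with 21 of 26 higher.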

How the data were processed

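RNA was amplified, labelled with biotin and hybridised to 18 one-colour arrays. The values are the authors' deposited log2 signals of 241576 probe sets, from 0.732 to 13.674. With array medians between 5.26 and 5.41, no further normalization was done. The authors' background correction and probe summarisation are not given in the sources used here. The platform's old annotation gave 212097 probe sets 1 symbol, 4475 several and 25004 none, and genes were built from those with 1. Through RefSeq names (GRCm38.p6) 2742 symbols were updated and 53 were not found. Herc6 is Herc5 on the array. Each member had 2 to 27 probe sets. The 20% of genes with the lowest means were left out.

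One limma model (version 3.58.1, R 4.3.3) with 4 group means was fitted to all genes, with 14 residual and 5.6 prior degrees of freedom, two-sided tests and Benjamini-Hochberg adjustment over 16281 genes, after tests on simulated data. Differences are on the log2 scale, and no test was made of the set as a whole. Members, lists, roles and the marker genes were chosen with earlier results of these data known. Values by array are given for members that passed and for the 3 of smallest 12-week p in each role. Alternatives covered the filter, normalization, the gene's value, the spread estimate, weights, blocks, sex, run, the pan-myeloid score and leaving out each array.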

Additional observations from a re-analysis of the deposited data

Results flagged for a closer look

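Among 54 sets of arrays (named members within groups of 4 to 6 arrays) 1 held an array far from the others. Oasl2 in WT replicate 4 at 6 weeks was at a log2 signal of 6.27, while the other 3 arrays lay between 5.72 and 5.78. Chance alone flags about 5% of such sets. That array also had the second lowest weight in the fit, 0.503.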

How the results depend on the processing

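Beside the 7 members called at 12 weeks, the count was 4 after quantile normalization, 11 in a fit of the 2 groups alone, 11 when the 2 lowest-weight arrays were left out, and 1 when the pan-myeloid score was a covariate, where the mean difference over the members was 0.39. In that order, 34, 190, 171 and 8 of all genes were called higher, beside 58 in the main fit. Fits without 1 array called 2 to 10 members at 12 weeks and 0 to 1 at 6 weeks. Over all genes those fits called 15 to 126 at 12 weeks and 0 to 11 at 6 weeks. The fall of Rtp4 in WT was not called with the brightest probe set, the mean of probe sets or a fit of the 2 groups alone (0 members each), and fits without 1 array called 0 to 1. Rtp4 and Ifit3 at 12 weeks were each called in 13 of 14 alternatives.

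Directions turned for some members that were not called. With the brightest probe set, differences at 6 weeks were 0.42 for Dtx3l, -0.00 for Parp9 and 0.72 for Cmpk2, and at 12 weeks -0.33 for Trim25, 0.43 for Cmpk2 and 0.03 for Ifnl2. The mean of probe sets gave Cmpk2 0.21 at 12 weeks. With the pan-myeloid covariate, Parp14 (-0.14) and Parp9 (-0.51) turned at 6 weeks and Parp9 (-0.10) at 12. Parp9 at 6 weeks was -0.04 with array weights, and without the 2 arrays of lowest weight Parp9 was -0.30 and Trim25 -0.03. Leaving out 1 array at 6 weeks gave -0.56 to 0.26 for Dtx3l, -0.29 to 0.46 for Parp9 and -0.01 to 0.86 for Usp18. The cause was not tested.

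Replicate numbers are shared between groups. Deviations from the group mean in same-numbered WT and KO arrays had correlations of -0.359 to 0.241 at 6 weeks and 0.025 to 0.099 at 12 weeks. No pairs of unlike number were set beside them, so whether the number marks a pairing was not tested. With the number as a block, 2 members were called at 12 weeks (Rtp4 and Ifit3), where 18 of all genes were called higher, and 0 in WT between stages. Over all genes the alternatives called 21 to 233 at 12 weeks and 0 to 28 at 6 weeks, beside 70 and 7. Array background was not at hand, so no member is called absent.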
